A study of Mus musculus with 4 samples.

Results

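The genes of amino acid transport and of the ATF4 response were examined in Treg cells of the mouse, the Foxp3-bearing regulatory subset of CD4 T cells that restrains other immune cells. The list held 40 genes of amino acid carriers, the ATF4 stress response, serine and one-carbon synthesis and tRNA charging. The platform annotation named probe sets for 39 of them among 18193 genes, and the brightest probe set, by mean signal over the arrays, stood for a gene that had several. Of these, 36 were bright enough to be tested, among 12111 genes tested in all. Slc7a11, Atf3 and Vldlr were too dim, no probe set was named for Pycr1, and Mars was read under its newer symbol Mars1. The series compared 2 arrays of wild-type with 2 arrays of Foxo1/3-deficient CD4+Foxp3+ cells, all from the spleen of C57BL/6 mice, as 2 numbered pairs of 1 array each. The sample titles and the design text name both Foxo1 and Foxo3 as deficient, while the genotype field names Foxo1 alone. The sources used here do not give the allele, the Cre driver, the age of the mice, any pooling, or whether the arrays of a group stand for different animals. P-values therefore take no account of any spread beyond these arrays, and they rest in part on variances pooled over genes.

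Cells that run short of an amino acid, or whose endoplasmic reticulum is overloaded, phosphorylate the translation factor eIF2. This lowers translation in general but favours that of ATF4, a bZIP transcription factor, so the level of Atf4 mRNA is only part of its control. ATF4, often paired with a C/EBP protein, induces amino acid carriers, enzymes that make asparagine, serine and proline, enzymes of the mitochondrial folate cycle and many cytoplasmic tRNA synthetases. Activated T cells raise the same genes as they grow, through MYC and mTORC1 as well as ATF4. Foxo1 and Foxo3 are transcription factors that PI3K and AKT signalling keeps out of the nucleus.

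ATF4 and C/EBP partners bind a composite element known as CARE, whose core was searched as TGATGNAA on both strands of 300 bases of promoter (250 before to 50 after the start site, RefSeq, GRCm38.p6). Promoters were in the table for 33 of the 40 genes. Those of Slc7a5, Slc7a3, Slc1a5, Slc38a1, Nars, Wars and Cars were not analysed here. The core was found in the promoters of 11 of the 33 genes (33.3%), against 4.51% of the 27025 genes of the table. Many of these genes are in the list because they are known ATF4 targets, so this share describes the list. The FoxO core GTAAACA was found in 1 of the 33, Slc7a11 (3.03%, against 4.05% of all genes). The palindromic E-box CACGTG, to which MYC and its relatives bind, was found in 3, namely Slc43a1, Aldh18a1 and Aars (9.09% against 8.09%). No match overlapped another in these promoters. A match is a run of letters and not a measured binding site.

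The following windows are shown because Asns, Aars and Trib3 gave the changes that passed in either fit described further on, while Gars, Got1 and Chac1 hold the same core and gave none. Each runs 5′ to 3′ on the strand of the gene, and capitals mark the core or its reverse complement. They lie at chr6:7693210-7693277 (Asns, minus strand), chr8:111033685-111033858 (Aars, plus), chr2:152344039-152344091 (Trib3, minus), chr6:55037926-55038000 (Gars, plus), chr19:43524655-43524752 (Got1, minus) and chr2:119351004-119351101 (Chac1, plus).
Asns: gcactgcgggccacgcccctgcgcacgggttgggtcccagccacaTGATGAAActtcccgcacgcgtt
Aars: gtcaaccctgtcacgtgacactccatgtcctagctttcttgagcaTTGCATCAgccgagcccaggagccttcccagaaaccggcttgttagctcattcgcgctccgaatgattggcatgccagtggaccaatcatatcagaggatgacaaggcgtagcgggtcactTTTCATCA
Trib3: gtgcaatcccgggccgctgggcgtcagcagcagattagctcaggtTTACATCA
Gars: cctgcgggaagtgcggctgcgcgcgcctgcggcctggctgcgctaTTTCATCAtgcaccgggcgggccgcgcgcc
Got1: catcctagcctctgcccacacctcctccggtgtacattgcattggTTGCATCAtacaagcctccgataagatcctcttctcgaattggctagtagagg
Chac1: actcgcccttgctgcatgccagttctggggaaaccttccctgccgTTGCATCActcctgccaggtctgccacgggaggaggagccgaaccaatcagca
The first base of the core lay at position -23 in Asns, -30 in Gars, -102 in Got1 and -193 in Chac1, counted from the first transcribed base as 1. In Trib3 it lay at 15, past the start site, and Aars held a core at -112 and another at 10. Asns and Gars carry the variants TGATGAAA and TTTCATCA, which are the same letters read on opposite strands, and both lie within the last 30 bases before the start site. The map of these matches shows CARE cores from position -200 to 15.

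**Figure D1:**
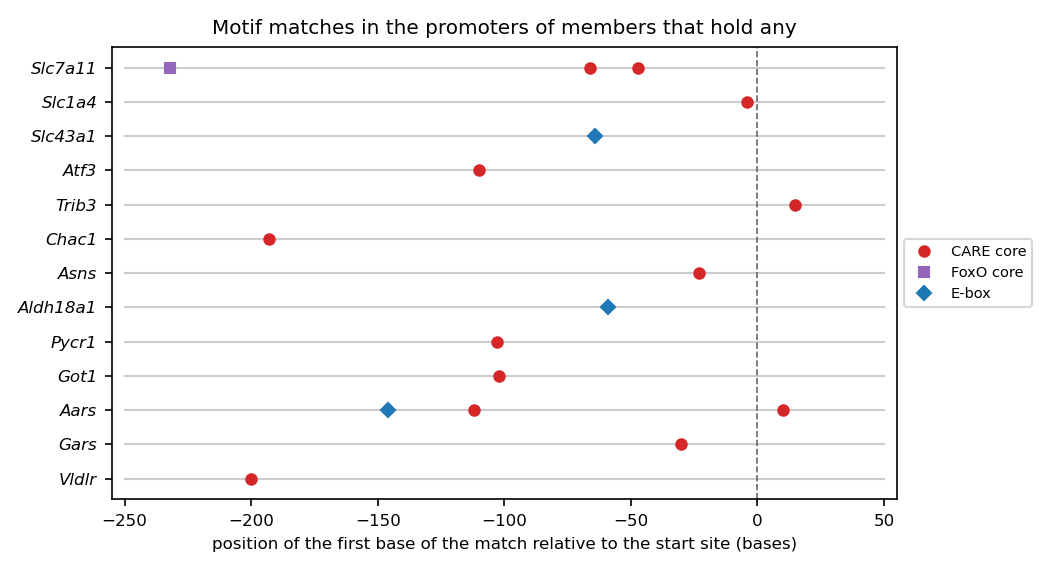
Motif matches in the promoters of the genes that hold at least 1, with the position of the first base of each match relative to the start site (dashed line) on the x axis in bases. CARE cores (red circles) lie between -200 in Vldlr and 15 in Trib3, E-boxes are blue diamonds, and the single FoxO core (purple square) is that of Slc7a11 at -232.

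Array signals were MAS5 values on a linear scale, and all 4 arrays shared a trimmed mean of 500.003. Foxo1 itself went against the label: its brightest probe set read 2383 and 1254 on wild-type arrays, against 6949 and 6697 on labelled-deficient arrays. Every direction below is therefore that of the arrays as labelled. Its difference was 1.97 ± 0.30 (limma adjusted p = 0.0210), and which part of Foxo1 the probe sets cover relative to the deletion was not analysed here. Foxo3 read 1876 and 2635 against 1424 and 1308 (log2 -0.70, limma adjusted p = 0.242, and 0.00963 when blocked on the pair). Foxp3 read between 6056 and 6540 on all 4 arrays, and Cd4 and Cd3e between 1456 and 3759. Cd4 and Cd3e were lower in pair 2 (log2 -0.84 and -0.81, limma adjusted p = 0.00368 and 0.00313). Il2ra (2449 and 3584 against 4416 and 3962) and Ctla4 (6516 and 6960 against 7377 and 8287) were higher without overlap. Tnfrsf18 (4057 and 6644 against 3692 and 4424) and Ikzf2 (15229 and 17387 against 13660 and 16298) overlapped. By limma 0 of the 7 Treg markers passed by genotype. The summed signal of 7 macrophage, monocyte and dendritic cell markers was 7713 and 5035 on wild-type arrays, against 10511 and 7940 on labelled-deficient arrays, with 0 of 7 past the threshold by limma and none at 0. When blocked on the pair, 2 of the 7 rose, Adgre1 (2.04-fold, limma adjusted p = 0.000601) and Csf1r (1.56-fold, 0.00804). Fcgr3 was dimmer, at 145 and 125 against 324 and 219. The groups overlapped for Lyz2 (942 and 611 against 772 and 613) and Itgax (434 and 235 against 342 and 306). They also overlapped for Cd68 (522 and 457 against 563 and 472) and Cd14 (229 and 113 against 297 and 186). The 5 plasma cell markers, among which Xbp1 and Prdm1 are also Treg genes, summed to 9888 and 13299.5 against 8095 and 11481, and of them Sdc1 and Tnfrsf17 stayed at or under 55.2. Jchain, the joining chain of secreted antibodies, read 1274 and 1934 against 1332 and 3291 (limma adjusted p = 0.818). Prdm1 (log2 -1.41, limma adjusted p = 0.0291) and the natural killer marker Eomes (-1.82, 0.0201) fell. Of the other natural killer markers, Ncr1 and Klra8 stayed at or under 37.2, and Tyrobp, which myeloid cells share, read 1277 and 396 against 1021 and 1295. Prdm1 missed the threshold without the filter (0.0647), without the trend (0.0795) and without labelled-deficient replicate 1 (0.146). Eomes missed it without the filter (0.0550), without the trend (0.0525) and without labelled-deficient replicate 2 (0.0546). The B cell markers named summed to 3093 and 1427 against 3040 and 2126, the CD8 T cell markers to 518 and 367 against 423 and 663, the natural killer cell markers to 2359 and 1849 against 1417 and 1637, the neutrophil markers to 795 and 183 against 236 and 102, and the erythroid markers to 118 and 230 against 263 and 178. When blocked on the pair, the B cell markers Ms4a1 (log2 0.89, limma adjusted p = 0.00343) and Cd22 (-0.75, 0.0230) and the neutrophil marker Mpo (-1.80, 0.0141) also passed. The part of such cells in the results was not tested, and fewer cells of a type cannot be told apart from less RNA per cell. Genes of the cell cycle were lower on the labelled-deficient arrays, where the proliferation marker gene Mki67 read 5977 and 7079 against 13243 and 13257.

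A single gene of the 36 changed past the threshold on the labelled-deficient arrays, a share near that of all genes. That gene was Asns, which encodes asparagine synthetase and was 2.60-fold lower. Differences are of log2(signal + 17), and 17, the added constant, is about the 25th percentile of the signals. On this scale 31 of the 36 genes tested (86.1%) differed by less than 1.5-fold, as did 81.5% of all genes tested. By limma with Benjamini-Hochberg adjustment over all genes, 0 of 36 rose and 1 fell at an adjusted p under 0.05, where 2.60% of all genes were called (1.23% higher, 1.37% lower). At an unadjusted p under 0.05, 2 were higher and 3 lower, against 5.98% and 7.04% of all genes. With the pair as a block, Trib3 also rose and Aars also fell, which made 1 higher and 2 lower where 5.54% and 6.66% of all genes were called (12.2% in either direction). The median log2 difference was -0.063 over the 36 genes and -0.0028 over all genes. Both labelled-deficient arrays lay below both wild-type arrays for 10 of the 36 (27.8%, against 21.1% of all genes) and above them for 3 (8.33%, against 20.0%). Neither share was tested. On simulated arrays with 200 of 12111 genes changed, the fit recovered 4.50% of 2-fold and 61.7% of 4-fold changes, so 2-fold changes were mostly missed there. On the real arrays 315 genes were called, and the growth gene Odc1 passed at 1.83-fold. With 2 arrays a group, a change of 2-fold or less may still have been missed in genes that were not called.

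**Figure D2:**
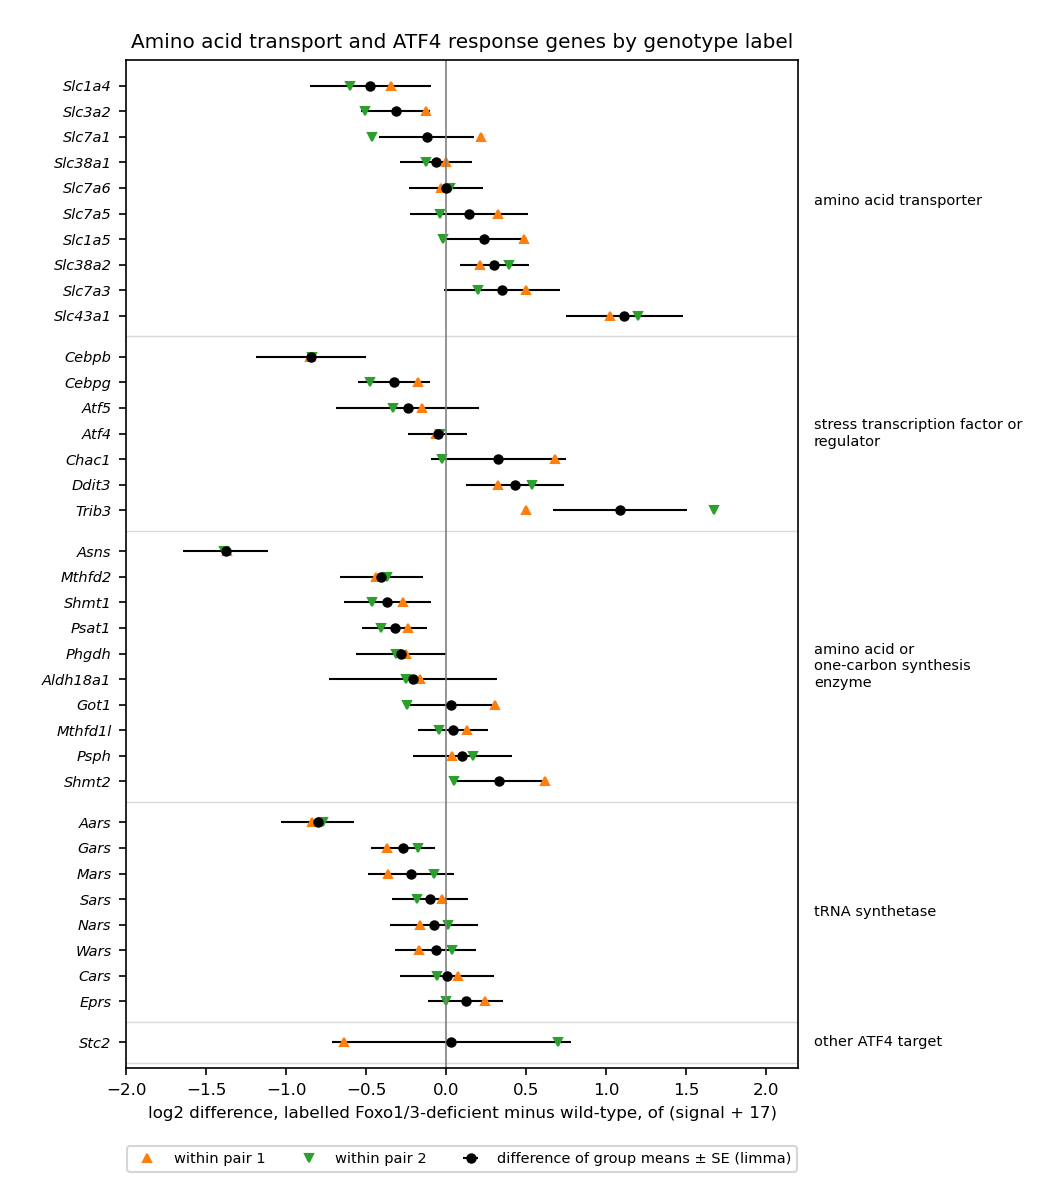
Log2 difference (labelled Foxo1/3-deficient minus wild-type, of signal + 17) for the 36 genes tested, grouped by role. Black points with bars are the difference of group means with its standard error (limma, 2 arrays a group), and triangles are the differences within pair 1 and pair 2. Asns lies farthest to the left, at -1.38, and Slc43a1 (1.11) and Trib3 (1.09) farthest to the right.

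Among the amino acid transporters, 0 of 10 tested passed in either direction by limma (1 higher and 0 lower at an unadjusted p under 0.05), and 5 had a difference above and 5 below 0. The largest difference was that of Slc43a1, which encodes LAT3, a carrier of large neutral amino acids. It read 50.3 and 68.4 on wild-type arrays, against 120 and 179 on labelled-deficient arrays, so both labelled-deficient values lay above both wild-type values. The difference was 1.11 ± 0.37 (log2 ± SE, 2.16-fold) and missed the threshold (adjusted p = 0.209 by limma, 0.0639 when blocked on the pair). It was the only gene of the 36 at least 2-fold higher in both pairs (1.03 and 1.20), as were 2.10% of all genes tested, and it fell short of 2-fold in a pair when the median was the pseudocount.

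The heavy and light chain of the leucine carrier that T cells raise on activation did not pass. Slc7a5, the light chain LAT1, read 254 and 481 on wild-type arrays, against 323 and 468 on labelled-deficient arrays (log2 0.15 ± 0.37). The groups overlapped, and the second array of each was the higher one. Slc3a2, the heavy chain CD98, which LAT1 and other light chains need to reach the membrane, read 1986 and 2437 against 1822 and 1710. Its groups did not overlap, but the difference of -0.32 ± 0.22 missed the threshold (limma adjusted p = 0.672). Slc7a6, another light chain that pairs with CD98, read 1205 and 1392 against 1180 and 1416, with a 95% interval of the log2 difference from -0.54 to 0.53.

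Carriers of glutamine and other neutral amino acids were close in the groups too. Slc1a5, the glutamine exchanger ASCT2, read 1025 and 1626 on wild-type arrays, against 1444 and 1607 on labelled-deficient arrays, and the first wild-type array alone was low. Slc38a1 read 2926 and 3872 against 2932 and 3552, with an interval of -0.58 to 0.46. Slc38a2, the sodium-coupled carrier SNAT2 that cells raise when amino acids are short, read 4508 and 3400 against 5221 and 4474, and its overlapping groups differed by 0.30 ± 0.22. Slc1a4, the alanine and serine carrier ASCT1, was dim, at 65.0 and 59.2 against 47.4 and 33.3. Both of its labelled-deficient values were the lower ones, with a log2 difference of -0.47 ± 0.38 (limma adjusted p = 0.742).

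The cationic amino acid carrier gene Slc7a1 (CAT1) read 2532 and 4702 on wild-type arrays, against 2953 and 3406 on labelled-deficient arrays. Its sign was opposite in the pairs, at 0.22 in pair 1 and -0.46 in pair 2. Slc7a3, a related cationic carrier, was dim at 46.9 and 51.5 against 73.4 and 61.9, without overlap (log2 0.35 ± 0.36). Slc7a11, the cystine carrier xCT, stayed between 19.4 and 36.2 on the 4 arrays and was not tested.

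Of the transcription factors and regulators of the stress response, 0 of 7 tested passed by limma (1 higher and 1 lower at an unadjusted p under 0.05). Atf4 mRNA read 3892 and 3987 on wild-type arrays, against 3719 and 3877 on labelled-deficient arrays, a log2 difference of -0.053 with a 95% interval of -0.48 to 0.38. The values of its probe set lay within a narrow range, although the groups did not overlap. A second Atf4 probe set read 2679 and 2832 against 3246 and 2658 and differed by 0.092, so the sign was not shared. Translation of ATF4 cannot be read from mRNA arrays.

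Trib3, a pseudokinase that ATF4 and CHOP induce and that dampens AKT, was higher on both labelled-deficient arrays. Its signals were 176 and 69.3 on the wild-type against 256 and 259 on the labelled-deficient arrays. The labelled-deficient values were nearly equal, and the wild-type array of pair 2 was the low one. The difference was 1.09 ± 0.42 (2.13-fold) and missed the threshold (limma adjusted p = 0.308), but passed when blocked on the pair (0.0418) and without wild-type replicate 1 (log2 1.67, limma adjusted p = 0.0309). With every probe set tested the block did not call it (0.152). Without wild-type replicate 2 the difference was 0.51 (limma adjusted p = 0.714), so that array set its size. A second Trib3 probe set went the same way, at 73.2 and 18.3 against 110 and 84.3 (log2 1.01).

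Ddit3, which encodes CHOP, a transcription factor of prolonged stress, read 476 and 317 on wild-type arrays, against 602 and 467 on labelled-deficient arrays. The groups overlapped, and the labelled-deficient array was higher in each pair (0.33 and 0.54; limma adjusted p = 0.684). Chac1, an enzyme that degrades glutathione and is a late target of the same branch, read 23.5 and 50.7 against 47.9 and 49.6, where the first wild-type array alone was low. Atf5, a relative of ATF4, read 153 and 83.9 against 136 and 63.3, a pair difference of -0.84 beside a genotype difference of -0.24, neither called. Atf3, an early stress factor, read 65.3 and 29.8 against 27.0 and 22.1 and was too dim to test.

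Neither C/EBP partner passed. Cebpb, which encodes a C/EBP factor of stress and inflammation, read 286 and 199 on wild-type arrays, against 151 and 104 on labelled-deficient arrays. Both labelled-deficient values lay below both wild-type values, and the drop was alike in the pairs (-0.85 and -0.84). It missed the threshold at -0.84 ± 0.34 (limma adjusted p = 0.346). Cebpg, the usual heterodimer partner of ATF4, read 1792 and 2311 against 1584 and 1658 (-0.33 ± 0.23). Another Cebpg probe set went the same way, at 450 and 450 against 449 and 275 (log2 -0.34). The dimmest went the other way, from 48.1 and 93.1 to 143 and 157 (log2 0.98), so the direction of Cebpg depended on the probe set.

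**Figure D3:**
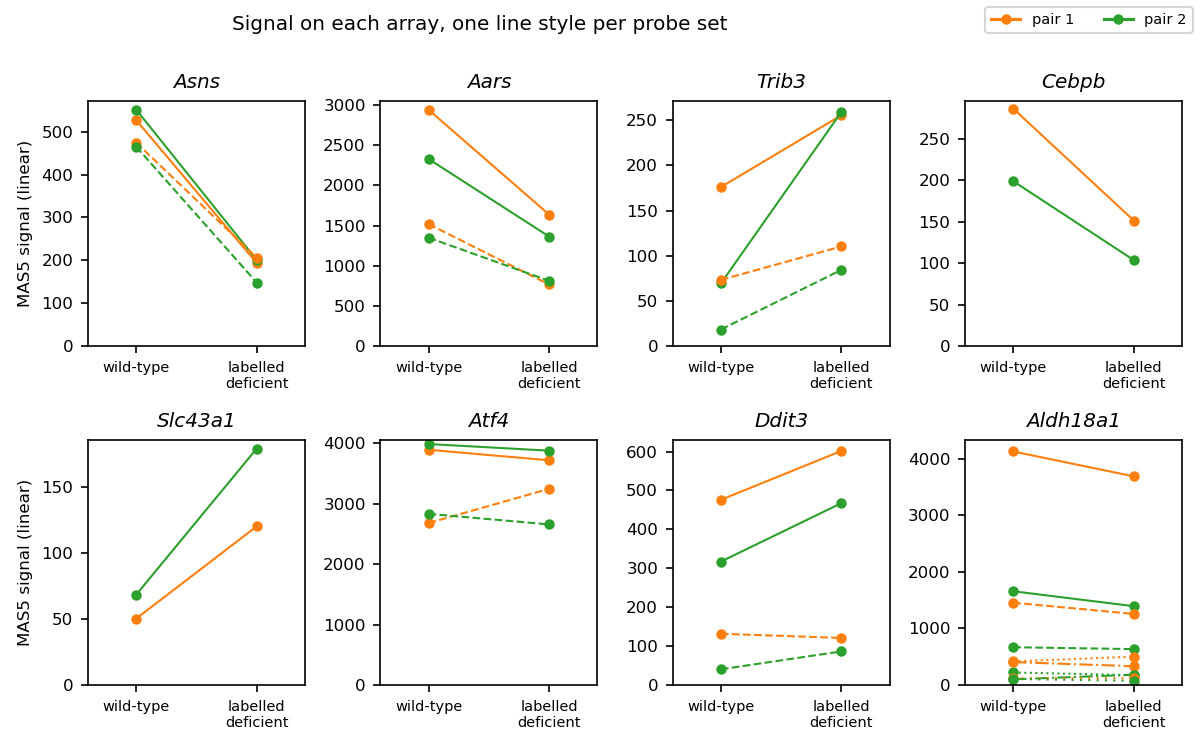
MAS5 signal (linear scale, from 0) of 8 genes on each array, wild-type at the left and labelled Foxo1/3-deficient at the right of each panel, with lines joining the arrays of pair 1 (orange) and pair 2 (green) and a line style for each probe set that was bright enough. Both probe sets of Asns and of Aars slope down in both pairs, those of Trib3 slope up, and Aldh18a1 is separated by pair and not by genotype.

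Among the enzymes of amino acid and one-carbon synthesis, 1 of 10 tested fell and 0 rose by limma (1 lower and 0 higher at an unadjusted p under 0.05), with a median log2 difference of -0.24. Asns, which makes asparagine from aspartate and glutamine and is a standard readout of ATF4, read 527 and 552 on wild-type arrays, against 194 and 201 on labelled-deficient arrays. The arrays of a group were close, and the groups were far apart. The means were 539 ± 17.3 and 197 ± 4.95 (SD, n = 2), a log2 difference of -1.38 ± 0.27 (limma adjusted p = 0.0440, and 0.000629 when blocked on the pair). The drop was -1.37 in pair 1 and -1.39 in pair 2, and Asns was the only gene of the 36 at least 2-fold lower in both pairs, as were 2.33% of all genes. The second Asns probe set read 475 and 465 against 206 and 148 (log2 -1.34). Over every probe set the Asns difference missed the threshold (limma adjusted p = 0.0713, and 0.0138 with the block).

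The Asns call was close to the threshold and did not hold under each alternative, though its size did. Its adjusted p by limma was 0.0819 without wild-type replicate 2, 0.185 without labelled-deficient replicate 1 and 0.137 without labelled-deficient replicate 2. It rose to 0.113 with dim probe sets kept in, and was 0.0656 without the intensity trend and 0.0707 on the first-listed probe set. The log2 difference stayed between -1.45 and -1.17 throughout. Proliferation genes moved the same way on these arrays, with 9 of 24 lower by limma. The summed macrophage-type markers were higher, though only Adgre1 and Csf1r among them passed when blocked on the pair. The part of either group of genes in the Asns difference was not tested.

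The serine pathway differed little. Phgdh, which opens serine synthesis from a glycolytic intermediate, read 5010 and 3424 on wild-type arrays, against 4208 and 2754 on labelled-deficient arrays. Psat1, the next enzyme, read 3449 and 4160 against 2923 and 3138, without overlap (-0.32 ± 0.20, limma adjusted p = 0.625). Psph, which completes serine, read 1416 and 888 against 1453 and 999, with overlap (0.10 ± 0.31). All of the kept Phgdh probe sets had negative differences, from -0.39 to -0.13. For Phgdh, 2 further probe sets carried several gene symbols and were left out.

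The folate-linked enzymes did not pass either. Shmt1, the cytoplasmic serine hydroxymethyltransferase, read 608 and 532 on wild-type arrays, against 501 and 382 on labelled-deficient arrays, without overlap (-0.37 ± 0.27). The other Shmt1 probe sets that were bright enough overlapped. They read 385 and 359 against 392 and 316 (log2 -0.075), and 368 and 317 against 366 and 321 (log2 0.0063). Shmt2, its mitochondrial counterpart, read 1289 and 1196 against 1987 and 1237, where the first labelled-deficient array alone was high. Mthfd2, the mitochondrial folate enzyme that activated T cells raise, read 2251 and 3023 against 1655 and 2336. Its labelled-deficient array was the lower one in each pair (-0.44 and -0.37), but the groups overlapped (limma adjusted p = 0.634). Mthfd1l, the next mitochondrial step, read 1696 and 2095 against 1856 and 2032, with an interval of -0.47 to 0.55.

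Got1, the cytoplasmic aspartate aminotransferase, which supplies the aspartate that asparagine synthetase uses, read 678 and 915 on wild-type arrays, against 844 and 772 on labelled-deficient arrays. Its pairs had opposite signs (0.31 and -0.24). Aldh18a1, which begins proline synthesis, read 4127 and 1657 against 3687 and 1393 and showed a genotype difference of only -0.20 ± 0.53 beside a large difference between pairs.

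Of the 8 tRNA synthetases in the list, 0 passed in either direction by limma (0 higher and 1 lower at an unadjusted p under 0.05), and the median log2 difference was -0.089. Aars, which charges tRNA with alanine, stood apart from the other 7. It read 2943 and 2331 on wild-type arrays, against 1638 and 1364 on labelled-deficient arrays, so every labelled-deficient value lay below every wild-type value. The means were 2637 ± 433 and 1501 ± 194 (SD, n = 2), 1.74-fold lower (log2 -0.80 ± 0.23; limma adjusted p = 0.142). Blocked on the pair, Aars passed (0.00131, and 0.0239 with every probe set tested). The drop was -0.84 and -0.77 in the pairs, and a second probe set read 1519 and 1350 against 766 and 812 (log2 -0.85).

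The other synthetases lay between -0.27 and 0.12. Gars, for glycine, read 3124 and 3198 on wild-type arrays, against 2418 and 2837 on labelled-deficient arrays, without overlap (-0.27 ± 0.20). Mars, for methionine, read 1452 and 1788 against 1128 and 1694, and Sars, for serine, 2484 and 2056 against 2446 and 1811. The groups of Mars and of Sars overlapped. Nars, for asparagine, the product of Asns, read 2830 and 3907 against 2522 and 3941 and so rose and fell with the pair. Wars, for tryptophan, read 1191 and 1409 against 1059 and 1447. Cars, for cysteine, read 188 and 215 against 199 and 206, with an interval of -0.67 to 0.69. Eprs, for glutamate and proline, read 2430 and 3431 against 2884 and 3426. The groups of Nars, Wars, Cars and Eprs overlapped on these probe sets. Other Eprs probe sets were higher without overlap, at 920 and 892 against 1076 and 1055 (log2 0.23) and 1309 and 1341 against 1359 and 1436 (log2 0.075). A dimmer Eprs probe set overlapped (log2 0.46).

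Of the other listed targets, Stc2 was not called and Vldlr was not tested. Stc2, a secreted glycoprotein that stress induces, read 79.7 and 189 on wild-type arrays, against 45.2 and 317 on labelled-deficient arrays. Its difference was negative in pair 1 (-0.63) and positive in pair 2 (0.70), with an interval of -1.70 to 1.77. A second Stc2 probe set read 107 and 114 against 139 and 152, without overlap (log2 0.35), and the remaining one differed by 0.071. Vldlr, a lipoprotein receptor, read between 23.5 and 34.7 and was too dim to test.

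Several genes of the list followed the pair number. With genotype as a covariate, limma called 2 of the 36 higher in the arrays of pair 2 and 3 lower, where 3.34% and 4.23% of all genes were called. Aldh18a1 had the smallest p, at -1.35 ± 0.16 (limma adjusted p = 3.18e-05): both arrays of pair 1 read 3687 or more and both of pair 2 read 1657 or less. All 5 of its probe sets were lower in pair 2, from -0.37 to -1.35. Phgdh (-0.58, limma adjusted p = 0.0254) and Psph (-0.60, 0.0411) were lower in pair 2 too. Stc2 (1.76, limma adjusted p = 0.00674) and Nars (0.55, 0.0338) were higher. A second Mthfd2 probe set rose from 1224 and 799 in pair 1 to 3083 and 2159 in pair 2 (log2 1.37, limma adjusted p = 0.0104 over every probe set), where the probe set read for the gene differed by 0.46. Without the intensity trend none of the 5 passed (limma adjusted p = 0.246 for Aldh18a1), and without the filter only Aldh18a1 did (0.0024). On the mean of probe sets Nars (0.223), Phgdh (0.194) and Stc2 (0.0949) missed the threshold, and with quantile normalization Psph did (0.0696). On its first-listed probe set Stc2 stood at 0.55 (0.444), Nars at 0.12 (0.744) and Phgdh at -0.073 (0.876). Ddit4, another ATF4 target, which inhibits mTORC1, moved most with the pair among the related lists, from 702 and 643 in pair 1 to 7340 and 2122 in pair 2 (log2 2.53, limma adjusted p = 3.41e-06; 0.246 without the trend). The genotype difference of Ddit4 was -0.95 (limma adjusted p = 0.361, and 0.0117 when blocked on the pair). It was unlike in the pairs, at -0.12 in pair 1 and -1.78 in pair 2. The pairs hold 1 array of each genotype, and the sources used here do not say what the pair number stands for.

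**Figure D4:**
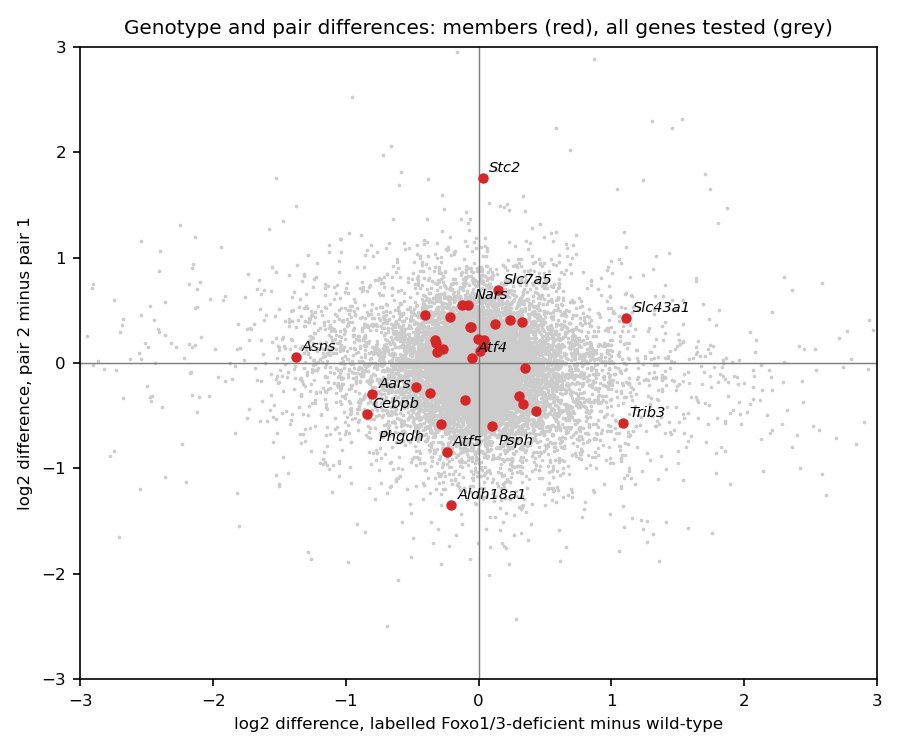
Genotype difference (x axis, log2, labelled Foxo1/3-deficient minus wild-type) against pair difference (y axis, log2, pair 2 minus pair 1) for the 36 listed genes (red) and all 12111 genes tested (grey; genes beyond 3 on either axis are not drawn). Asns lies at the left with a pair difference of 0.055, while Stc2 (1.76) and Aldh18a1 (-1.35) lie near 0 on the genotype axis.

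The other genes of these pathways were read from lists set beside the 40. Of 14 other cytoplasmic tRNA synthetases and scaffold proteins tested, 0 passed by limma (0 at an unadjusted p under 0.05, 1 lower with the block). Their median log2 difference was -0.11, and the range ran from -0.92, lower than that of Aars, to 0.11. Of 16 mitochondrial synthetases 0 passed (0 unadjusted), and 14 lay above 0 with a median of 0.21. Of 18 other amino acid transporters 0 passed (1 lower unadjusted, 1 lower with the block; median 0.18). Of 11 other folate and one-carbon enzymes 0 passed (1 lower unadjusted, 1 lower with the block; median 0.055). These medians compare with -0.0028 over all genes, of which 6019 of 12111 lay above 0.

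The sensors upstream of ATF4 did not pass. Of 15 eIF2 kinases, phosphatases and subunits of eIF2 and eIF2B, 0 passed by limma (0 higher and 1 lower unadjusted; median -0.11). Eif2ak4, which encodes GCN2, the kinase that senses uncharged tRNA, read 468 and 309 on wild-type arrays, against 322 and 284 on labelled-deficient arrays. Eif2ak3, which encodes PERK, the kinase of the endoplasmic reticulum, read 1733 and 1564 against 1184 and 1217, without overlap (log2 -0.45 ± 0.22, limma adjusted p = 0.461). The haem-regulated kinase gene Eif2ak1 and the RNA-sensing kinase gene Eif2ak2 differed by -0.061 and -0.0063. Genes of the unfolded protein response had differences below 0 in 23 of 23, as had 6092 of the 12111 genes tested. Their median was -0.34, against -0.0028 over all genes. Both labelled-deficient arrays lay below both wild-type arrays for 16 of the 23 (69.6%, against 21.1% of all genes) and above them for 0. These shares were not tested. By limma 0 of the 23 passed (0 higher and 6 lower unadjusted, and 6 lower with the block).

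Few other targets and growth genes passed by limma. Among 15 other ATF4 targets and stress genes, both labelled-deficient arrays lay above both wild-type arrays for 6 (40%, against 20.0% of all genes). They lay below them for 4 (26.7%, against 21.1%), and neither share was tested. Of the 15 genes 1 fell and 0 rose by limma (2 lower and 1 higher with the block). The fall was that of Jdp2, a bZIP repressor that can pair with ATF and C/EBP factors, from 802 and 1316 to 150 and 175 (log2 -2.54 ± 0.32, limma adjusted p = 0.0105). On the mean of its probe sets Jdp2 stood at -1.13 and missed the threshold (limma adjusted p = 0.100). Of 28 genes of mTORC1 and its amino acid sensing 2 rose and 0 fell by limma (4 and 1 with the block). Sesn1, a sestrin that restrains mTORC1, read 2920 and 1923 against 9756 and 8823, and Castor2, a relative of an arginine sensor, 115 and 115 against 471 and 355 (limma adjusted p = 0.00969 and 0.0342). Castor2 missed the threshold without labelled-deficient replicate 1 (0.186) and without labelled-deficient replicate 2 (0.0637), and Sesn1 missed it without the intensity trend (0.0525). Castor2 also missed it without the filter (0.113), without the trend (0.0542) and on the mean of its probe sets (log2 0.75, 0.310).

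MYC drives many amino acid carriers, and Myc read 1148 and 958 on wild-type arrays, against 2356 and 1731 on labelled-deficient arrays (log2 0.93 ± 0.25, limma adjusted p = 0.115, and 0.000488 with the block). Of 14 genes of MYC and growth 1 fell and 0 rose by limma (1 and 1 with the block; median 0.11). The fall was that of Odc1, the rate-limiting enzyme of polyamine synthesis, from 13963 and 13183 to 7763 and 7063 (limma adjusted p = 0.0428). Odc1 missed the threshold without any 1 array, with adjusted p values of 0.0682 and 0.0555 without wild-type replicate 1 and 2 and of 0.118 and 0.163 without labelled-deficient replicate 1 and 2. It also missed it without the filter (0.116) and without the trend (0.174). Its size depended on the probe set. The log2 difference was -0.87 on the one read, -1.87 on the first-listed one (limma adjusted p = 0.0212) and -1.43 on the mean (0.0127). Of 24 proliferation genes 9 fell and 0 rose (20 with the block), with a median of -1.10. Both labelled-deficient arrays lay below both wild-type arrays for 24 of the 24 (100%, against 21.1% of all genes), a share not tested. At an unadjusted p under 0.05 by limma, 23 of the 24 genes were lower, against 7.04% of all genes. Among them Mki67 differed by -1.02 (limma adjusted p = 0.0304), and missed the threshold without labelled-deficient replicate 1 (0.140), without the filter (0.0924) and without the trend (0.131). The calls of all 9 were lost without the trend (limma adjusted p from 0.0600 to 0.133) and without labelled-deficient replicate 1 (0.0726 to 0.261). Without the filter 1 of the 9 still passed, the mitotic kinase gene Cdk1 (0.0491). Without labelled-deficient replicate 2, 2 of the 9 did, Mki67 (0.0449) and the ribonucleotide reductase gene Rrm2 (0.00567). Leaving out wild-type replicate 1 ended 3 of the 9 calls, and leaving out wild-type replicate 2 ended 4.

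**Figure D5:**
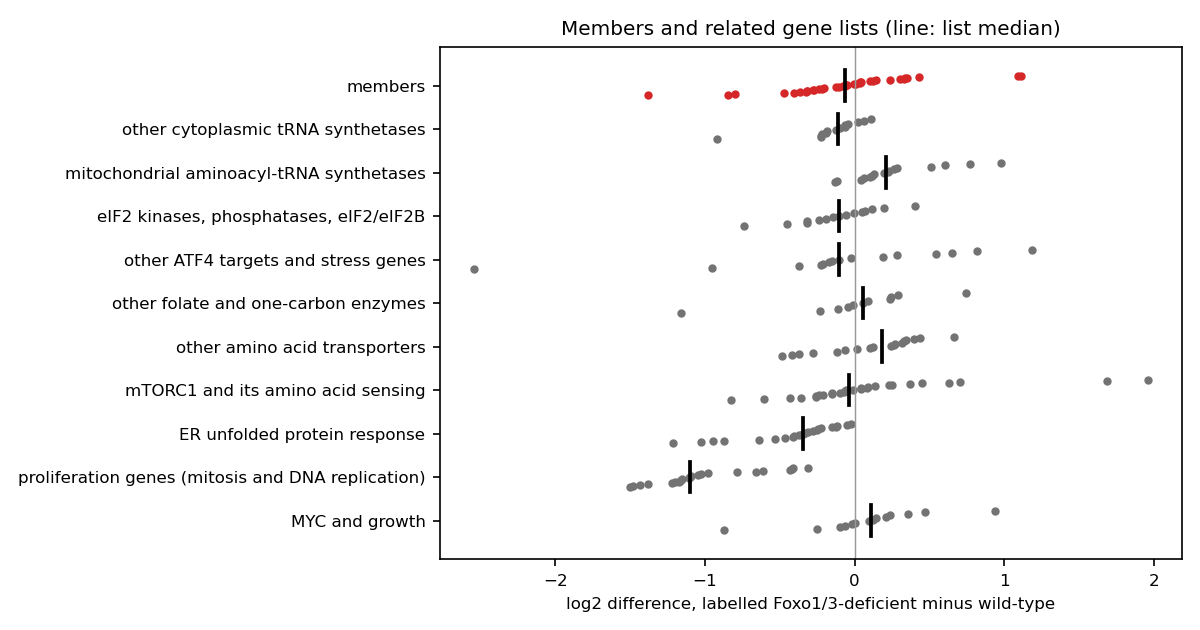
Log2 difference (labelled Foxo1/3-deficient minus wild-type) of each gene tested (points) in the list of 36 (red) and in 10 related lists (grey), with the median of each list as a black line and vertical offsets that carry no value. The medians lie between -0.34 and 0.21 for all lists but proliferation genes, whose median is -1.10.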

How the data were processed

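Gene expression was measured on 4 arrays of splenic Treg cells, 2 of each genotype label. The deposited intensity values are probe-set signals made with MAS5 by the authors, per the submitters' processing notes; the sources used here give no version or settings, and detection calls were not analysed here. MAS5 corrects background and scales each array, so no further scaling was applied. Of 45101 probe sets, 34945 had 1 gene symbol, 932 several and 9160 none (64 were controls); only the first kind was used, with symbols updated by gene identifier to RefSeq GRCm38.p6. Each gene was read from its brightest probe set. Genes whose mean log2(signal + 17) lay under the 40th percentile of all probe sets (a signal of about 40.5) were left out. A fold change on this scale understates the change of dim genes.

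The comparison used limma 3.58.1 under R 4.3.3 (lmFit, eBayes with an intensity trend, two-sided) without the pair. Residual degrees of freedom numbered 2, and the variance prior contributed 5.67. With the pair as a block fewer residual degrees of freedom were left, and the prior contributed 19.1. P-values of the blocked fit, and of the pair comparison, which has the same terms, therefore rest mostly on variances pooled over genes. With 2 arrays against 2 the smallest p of an exact permutation test is 0.333, so every p leans on that model. The titles call the number a pair, which is where the pairing comes from; deviations of same-numbered arrays from their group means correlated with a Pearson r of 0.368 across genes, which are not independent replicates. A fit blocked on the pair was an alternative. On simulated data for the genotype comparison (12111 genes, 200 changed, 10 runs) false calls were 5.06%. The genes and lists were chosen with earlier results of these data known, so they are no independent support. All 40 genes are named; another gene could be named only where it stood in a related or marker list and passed the test of genotype (at most 4 a list), or was a FoxO gene, Mki67, Myc, an eIF2 kinase or a marker. Ddit4 falls outside this rule and was chosen after its values were seen. Other settings tried were the pseudocount, the filter, quantile normalization, the trend, the probe set read for a gene, the block and leaving out each array.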

Additional observations from a re-analysis of the deposited data

How the results depend on the processing

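The count of genes of the list called by genotype was 0 higher and 1 lower, and it became 0 lower without the filter on dim probe sets, without the intensity trend and on the first-listed probe set (limma; 2, 3 and 3 lower at an unadjusted p under 0.05). Over all genes the counts (149 higher and 166 lower) were 46 and 45 without the filter, 58 and 55 without the trend, and 83 and 109 on the first-listed probe set. With the pair as a replicate block they were 671 and 806, with 1 higher and 2 lower in the list; the block changed no other call of the list. Leaving out 1 array gave 0 to 1 higher and 0 to 1 lower in the list, 70 to 270 higher and 82 to 259 lower over all genes, and a median of the list from -0.15 to 0.075. The median was 0.011 on the first-listed probe set and -0.018 on the mean of probe sets. The count 2-fold higher in both pairs (1) was 0 with the median as pseudocount, with a 60th percentile filter and with quantile normalization. Between pairs, the 2 higher and 3 lower became 0 and 1 without the filter, 0 and 0 without the trend, and 1 and 1 on the first-listed probe set. With the filter at the 60th percentile 1 was higher, as Stc2 was no longer tested. Calls between pairs also ended on the mean of probe sets (Stc2, Nars and Phgdh) and with quantile normalization (Psph). The cause of the other shifts was not tested. Leaving out an array leaves no residual degrees of freedom in the pair comparison, so that alternative could not be fitted. Signs that turned belonged to differences that were not called: Stc2 without a pseudocount (-0.033) and with quantile normalization (-0.078), Cars with quantile normalization (-0.078) and on the mean of probe sets (-0.013), Slc38a1 (0.024) and Cebpg (0.98) on the first-listed probe set, and Atf4 (0.046) and Cebpg (0.10) on the mean. When 1 array was left out, the sign also turned for Slc7a5 (-0.29 to 0.58), Slc1a5 (-0.093 to 0.56), Slc7a1 (-0.57 to 0.32), Slc7a6 (-0.13 to 0.13), Slc38a1 (-0.26 to 0.14), Atf5 (-0.71 to 0.23), Chac1 (-0.043 to 0.70), Mthfd1l (-0.11 to 0.19), Aldh18a1 (-0.90 to 0.49), Got1 (-0.18 to 0.25), Psph (-0.23 to 0.43), Shmt2 (-0.0049 to 0.67), Phgdh (-0.59 to 0.023), Sars (-0.32 to 0.11), Cars (-0.082 to 0.10), Eprs (-0.13 to 0.37), Nars (-0.40 to 0.24), Wars (-0.29 to 0.16), Mars (-0.51 to 0.071) and Stc2 (-1.18 to 1.25). The block with every probe set tested was chosen after seeing the data. Precision is limited by there being 2 arrays a group.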
